A study of Mus musculus with 16 samples.

Results

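The HoxC genes are a row of 9 homeobox genes on mouse chromosome 15, Hoxc13, Hoxc12, Hoxc11, Hoxc10, Hoxc9, Hoxc8, Hoxc6, Hoxc5 and Hoxc4, all on the plus strand. They were taken by name, as 9 of 26180 gene symbols with a curated RefSeq transcript, together with every deposited peak over a 135-kb window that runs from 11131 bp before the first gene to 8144 bp past the last (the genes span chr15:102921131-103036856, GRCm38). This gave 406 of the 107863 peaks in 6 lists. The peaks came from chromatin immunoprecipitation sequencing (ChIP-seq) of R1 mouse embryonic stem cells (ESCs) that carry MycER, a fusion of Myc with the hormone-binding part of the estrogen receptor, which 4-hydroxytamoxifen (OHT) switches on. LIF-ESCs were kept with 100 units per ml of the cytokine LIF and without OHT, whereas Myc-ESCs were kept with 50 nM OHT and without LIF, so the cultures differed in both agents and both carried the transgene. There were 16 labelled libraries (4 of them inputs, and 2 per antibody in each culture), but a single peak list was deposited per antibody and culture. MycER lines are clones, and the sources used here do not tie a clone to each library. Each list stands for both libraries of its group or an unstated choice of them, and it holds no read counts. Depth is therefore unknown, replicate error cannot be estimated, and every value below is a description with no test.

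Hox genes encode homeodomain transcription factors that give cells their position along the body axis, and their order along the chromosome follows the order of the body regions in which they act. In ESCs these clusters are a textbook target of Polycomb repressive complex 2 (PRC2), whose subunit Suz12 is needed for the trimethylation of histone H3 at lysine 27 (H3K27me3), a mark of silenced developmental genes. Their start sites often also carry H3K4me3, the mark of active or poised promoters, and the joint state is called bivalent.

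The posterior end of the window, from Hoxc13 to Hoxc10, is followed by the central genes Hoxc9 and Hoxc8 and the anterior genes Hoxc6, Hoxc5 and Hoxc4. H3K27me3 was the mark whose peaks differed most between the cultures over this window. LIF-ESCs had 27 H3K27me3 peaks and Myc-ESCs 182, and the bases under them were 3.43% and 34.4% of the window. In the same order, Suz12 peaks numbered 93 and 79 and covered 52.4% and 77.6% of the window. H3K4me3 peaks numbered 12 and 13 and covered 20.9% and 26.8%. The bases under H3K27me3 in Myc-ESCs were 10.0 times those in LIF-ESCs over the cluster and 5.52 times over the whole genome. For Suz12 the same ratio was 1.48 over the cluster and 1.51 genome-wide, and for H3K4me3 it was 1.28 and 0.977. A list made from deeper sequencing holds more peaks. When the Myc-ESC H3K27me3 list was limited to as many peaks as the LIF-ESC list holds, 3120, it kept 69 peaks over the cluster. These covered 19.7% of it, 5.75 times the LIF-ESC bases. The genome ratio of 5.52 is that of the full lists and was not computed at equal length, so 5.75 cannot be set beside it.

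**Figure D1:**
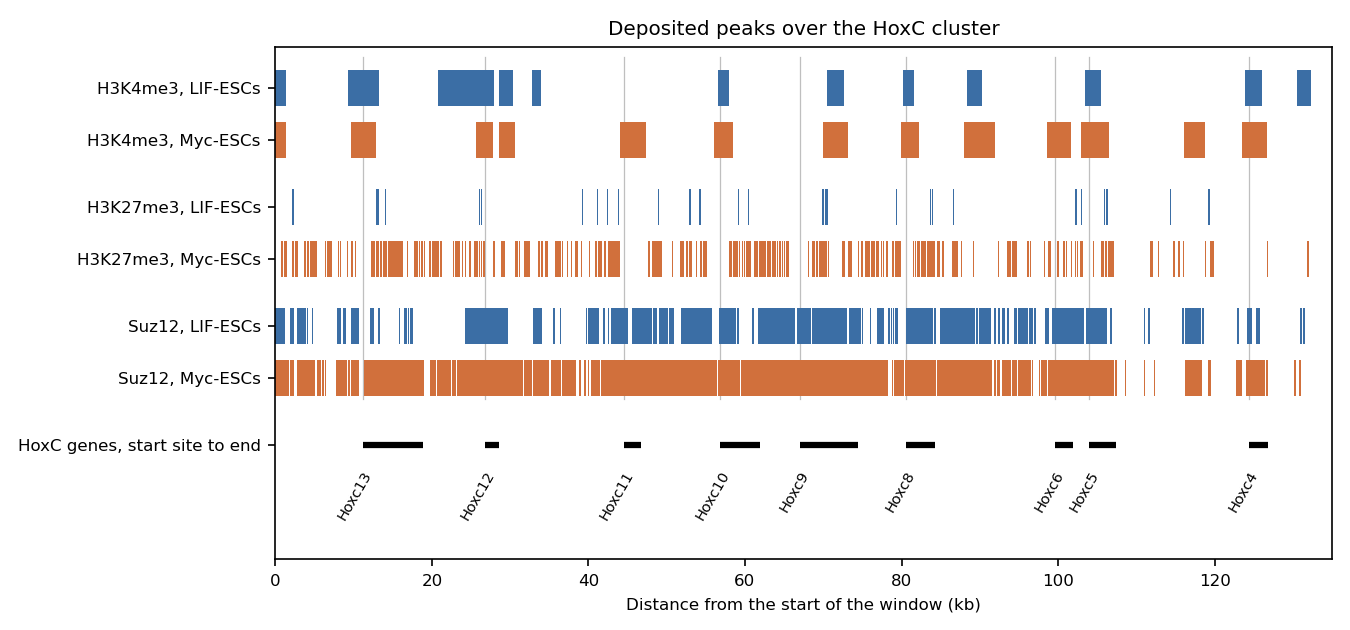
Map of the deposited peaks over the HoxC window, with the distance from the start of the window in kb on the x axis, 1 row for each antibody and culture (LIF-ESCs blue, Myc-ESCs orange), and the genes as black bars from start site to end below. The H3K27me3 row holds 27 short peaks for LIF-ESCs and 182 for Myc-ESCs, and Suz12 peaks lie in a nearly unbroken run from Hoxc13 to Hoxc5 in Myc-ESCs.

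A gene is called marked where any peak touched the 2500 bp on either side of its curated start site, a window of 5001 bp. Each of the 9 genes had 1 curated start site. For Hoxc6 and Hoxc4 the RefSeq gene record begins farther upstream, by 11336 and 16298 bp. The windows of Hoxc6 and Hoxc5 overlap at their edges and share bases. Suz12 marked all 9 genes in both cultures, where 12.1% of all symbols were marked in LIF-ESCs and 14.6% in Myc-ESCs. H3K27me3 marked 6 genes in LIF-ESCs, against 3.82% of all symbols, and 9 in Myc-ESCs, against 10.7%. H3K4me3 marked 6 genes in LIF-ESCs, against 62.2% of all symbols, and 8 in Myc-ESCs, against 63.3%. All 3 antibodies met at 5 genes in LIF-ESCs (2.77% of all symbols) and at 8 in Myc-ESCs (8.87%). Hoxc9, without H3K4me3 at its start, was the exception in Myc-ESCs. The genes with a peak in Myc-ESCs and none in LIF-ESCs were Hoxc9, Hoxc6 and Hoxc4 for H3K27me3, where 7.65% of all symbols had this pattern, and Hoxc11 and Hoxc6 for H3K4me3, where 2.35% did. For Suz12 no HoxC gene had it, against 3.82% of all symbols. No HoxC gene had a peak in LIF-ESCs alone for any antibody. With windows of 5000 bp on either side, H3K27me3 marked all 9 genes in both cultures, so the calls at Hoxc9, Hoxc6 and Hoxc4 depend on the width of the window. Within 2500 bp, these genes had 0 H3K27me3 peaks in LIF-ESCs. In Myc-ESCs Hoxc9 had 9, Hoxc6 6 and Hoxc4 1. In LIF-ESCs the H3K27me3 peak nearest to the start was 2858 bp away at Hoxc9, 2628 bp at Hoxc6 and 4982 bp at Hoxc4. The calls at Hoxc6 and Hoxc4 also depend on the start site. At the 5′ end of the gene record both windows held H3K27me3 in LIF-ESCs, so that H3K27me3 marked 8 genes there. Hoxc9 alone then had it only in Myc-ESCs. The LIF-ESC H3K27me3 peaks in that Hoxc4 window lay over exon 2 of Hoxc5 and were also counted at Hoxc5. With the gene-record start, LIF-ESC H3K4me3 was present at Hoxc6 and absent at Hoxc4. The genes with H3K4me3 in Myc-ESCs alone were then Hoxc11 and Hoxc4. At Hoxc4 this was the edge of the Hoxc5 peak of Myc-ESCs (chr15:103012986-103016509). The Hoxc5 peak of LIF-ESCs ended at 103015468, short of that Hoxc4 window.

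**Figure D2:**
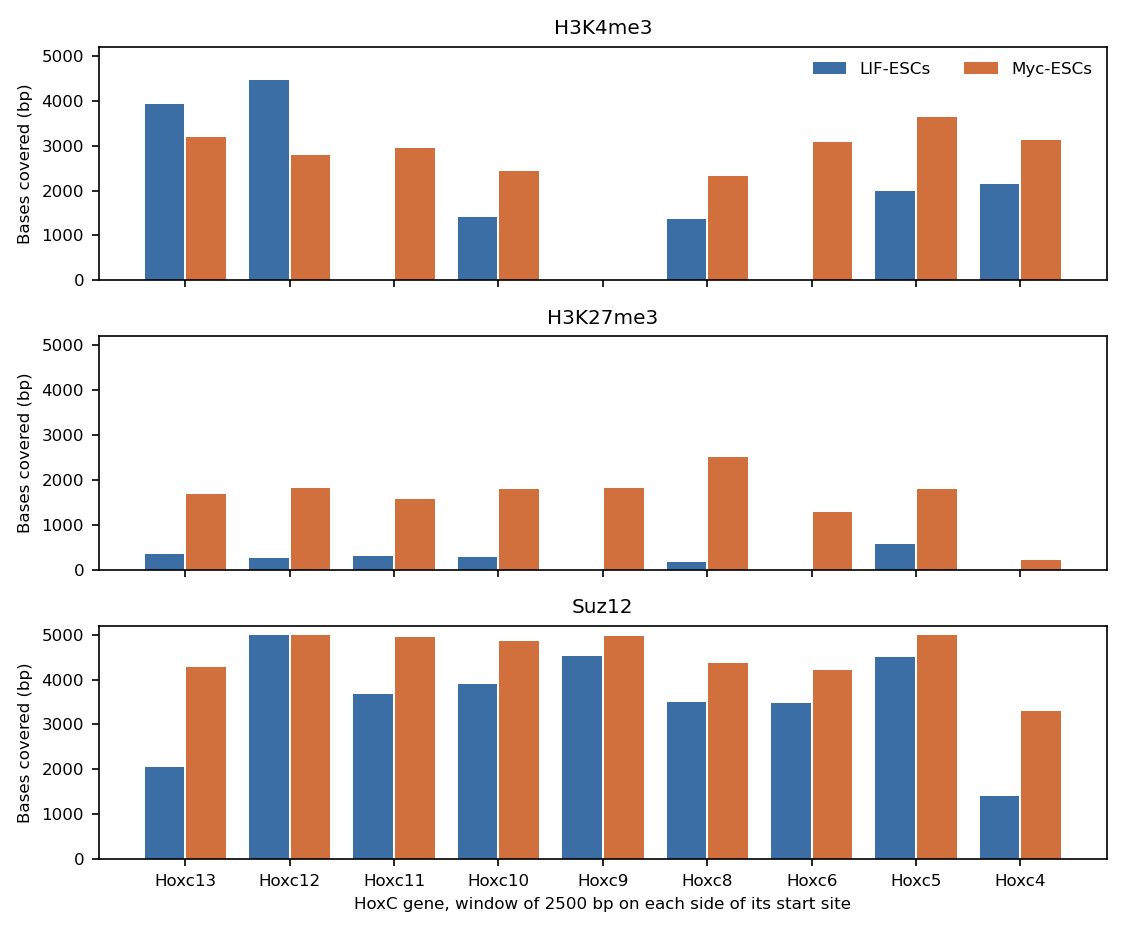
Bases covered by peaks, in bp, within the 5001-bp window around the start site of each HoxC gene, for H3K4me3, H3K27me3 and Suz12, with 1 bar for each deposited list (LIF-ESCs blue, Myc-ESCs orange, no error bar because there is 1 list per bar). H3K27me3 bars are higher in Myc-ESCs at all 9 genes, whereas H3K4me3 bars are lower in Myc-ESCs at Hoxc13 and Hoxc12 and absent in both cultures at Hoxc9.

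In what follows, pairs of values give LIF-ESCs first and Myc-ESCs second. Among the posterior genes, Hoxc13, which acts in hair follicles and nails, had H3K4me3 on 3936 of the 5001 bases in LIF-ESCs and on 3190 in Myc-ESCs. H3K27me3 covered 349 and 1695 bases there, and Suz12 2044 and 4280. Its start site lay in an H3K4me3 peak in both cultures but in no Suz12 peak, the nearest of which was 497 bp away in LIF-ESCs but 181 bp in Myc-ESCs. Hoxc12, a gene of the posterior trunk and limbs, was the only HoxC gene whose whole window lay under Suz12 in both cultures. H3K4me3 covered 4471 of its bases in LIF-ESCs, against 2794 in Myc-ESCs, and H3K27me3 266 and 1821. At Hoxc11, another posterior gene, H3K4me3 was on 0 bases in LIF-ESCs and on 2960 in Myc-ESCs. H3K27me3 covered 312 and 1566 bases of the Hoxc11 window and Suz12 3673 and 4945. Hoxc10, which is expressed in the lumbar spinal cord and hindlimb, had 1406 and 2444 bases under H3K4me3, 286 and 1809 under H3K27me3, and 3911 and 4865 under Suz12. All 4 posterior genes thus had H3K27me3 peaks in both cultures, with 1566 to 1821 bases covered in Myc-ESCs.

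The central genes set the trunk level of spinal motor neurons and vertebrae. Hoxc9, which marks the thoracic level, had no H3K4me3 within 2500 bp of its start in either culture. Its H3K27me3 was 0 bases in LIF-ESCs, against 1829 in Myc-ESCs, and its Suz12 4527 and 4979, so it was a start with Suz12 alone in LIF-ESCs and with both Polycomb features in Myc-ESCs. The nearest H3K4me3 peak lay 3434 bp downstream in LIF-ESCs, or 2915 bp in Myc-ESCs. That peak covered exon 2 of Hoxc9 and the start of Gm36878, a non-coding gene on the other strand, so it need not belong to Hoxc9. Hoxc8, which acts around the brachial and thoracic levels, had the most H3K27me3 of the 9 genes in Myc-ESCs, 2508 bases, against 173 in LIF-ESCs. H3K4me3 covered 1372 and 2333 bases at Hoxc8, and Suz12 3492 and 4361. The Hoxc8 start lay 4 bp outside a Suz12 peak in LIF-ESCs and inside one in Myc-ESCs.

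Among the anterior genes, which act at neck and forelimb levels, Hoxc6 had neither histone mark at its curated start in LIF-ESCs and both in Myc-ESCs, whereas at the 5′ end of its gene record both marks were present in both cultures. The Hoxc6 window held 0 and 3091 bases under H3K4me3, 0 and 1288 under H3K27me3, and 3469 and 4217 under Suz12. The curated Hoxc6 start lay within the longest gap between neighbouring H3K27me3 peaks of the window in LIF-ESCs, 15463 bp (chr15:102996727-103012189). Hoxc5 had H3K4me3 on 2000 and 3641 bases, H3K27me3 on 565 and 1807, and Suz12 on 4492 and 4994. Its 565 bases were the most H3K27me3 of any HoxC gene in LIF-ESCs, in peaks with scores of at most 71.79. Hoxc4 stood at the other end, with H3K27me3 on 0 and 218 bases and the least Suz12 in both cultures, 1396 and 3293 bases. Its H3K4me3 was on 2141 and 3121 bases. The longest such gap in Myc-ESCs, 6769 bp (chr15:103029885-103036653), held the Hoxc4 start.

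The single Hoxc4 H3K27me3 peak of Myc-ESCs had a score of 87.6, and Hoxc4 was the 1 gene that lost its mark when the Myc-ESC list was limited to 3120 peaks. The score is the deposited value of the peak caller, 10 times the negative log10 of the p-value of a peak. It starts at 50, a p of 1e-05, and depends on depth, so it is used here only to place a peak within its own list. The coverage of the windows was set beside that of all marked symbols. The median over the 9 genes, zeros included, was 36.1% of the window for H3K27me3 in Myc-ESCs, where the median of the 2811 symbols with a peak was 6.36%. For Suz12 in Myc-ESCs the values were 97.3% and 24.0%, and in LIF-ESCs 73.4% and 17.2%. For H3K27me3 in LIF-ESCs they were 5.32% and 3.12%. For H3K4me3 the HoxC median was below that of the marked symbols, 28.1% and 64.0% in LIF-ESCs, and 59.2% and 67.1% in Myc-ESCs. These pairs are unlike, because HoxC genes without a peak count as zeros whereas symbols without a peak are left out. Of all 26180 symbols, 15245 reached the HoxC median of H3K4me3 in LIF-ESCs, a majority, but 10631 did in Myc-ESCs, a minority.

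The H3K4me3 peak on the start site itself can be followed gene by gene. At Hoxc13 it was 3936 bp long with a score above 68.4% of its list in LIF-ESCs, and 3190 bp long and above 47.2% in Myc-ESCs. At Hoxc12 it was 7266 bp long and above 58.5% of the list in LIF-ESCs. The Hoxc12 peak of Myc-ESCs was 2100 bp long and above 29.7%, and it lay wholly within the LIF-ESC peak. These were the only 2 HoxC start sites with a shorter and lower-ranked H3K4me3 peak in Myc-ESCs. At Hoxc10 the peak measured 1406 bp in LIF-ESCs but 2444 bp in Myc-ESCs, and its score was above 10.7% and 36.7% of the lists. At Hoxc8 it was 1372 and 2333 bp long, above 4.31% and 16.4%. At Hoxc5 it was 2000 and 3524 bp long, above 46.3% and 57.3%. At Hoxc4 it was 2141 and 3121 bp long, above 61.1% and 62.9%. The peaks seen in Myc-ESCs alone were 3225 bp long and above 19.4% of the list at Hoxc11, and 3091 bp long and above 45.1% at Hoxc6. The LIF-ESC peaks at Hoxc10 and Hoxc8 had scores of 69.8 and 57.1, near the lowest score of the list, 50, and only Hoxc13, Hoxc12, Hoxc5 and Hoxc4 kept a LIF-ESC peak at a score of at least 100.

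Away from the curated start sites, H3K4me3 also marked places between the curated transcripts. A peak between Hoxc8 and Hoxc6 was 1832 bp long in LIF-ESCs (chr15:102998388-103000219) and 4013 bp in Myc-ESCs (chr15:102997923-103001935). It lies near the 5′ end of the Hoxc6 gene record, upstream of the curated start used here. A peak of 2649 bp before the curated Hoxc4 start (chr15:103026147-103028795), within the Hoxc4 gene record, was listed in Myc-ESCs alone. Peaks of 1178 bp between Hoxc12 and Hotair and of 1827 bp beyond Hoxc4 were listed in LIF-ESCs alone, with scores of 75.0 and 78.5. By segment, H3K4me3 covered 26.3% of the posterior bases in LIF-ESCs but 22.1% in Myc-ESCs, 16.1% and 25.3% of the central bases, and 16.0% and 33.6% of the anterior bases. The order of the segments was thus opposite in the cultures, with the posterior end most covered in LIF-ESCs and the anterior end in Myc-ESCs.

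Suz12 formed longer runs in Myc-ESCs. When peaks less than 1000 bp apart were joined, LIF-ESC Suz12 gave 15 domains, the longest of 19523 bp over Hoxc11 and Hoxc10. Myc-ESC Suz12 gave 8, and the longest, of 99737 bp (chr15:102917749-103017485), held every HoxC start except that of Hoxc4. Suz12 covered 50.9% of the posterior segment in LIF-ESCs but 89.4% in Myc-ESCs, 78.1% and 96.4% of the central segment, and 42.8% and 53.6% of the anterior segment. The longest single Suz12 peak in Myc-ESCs, of 10486 bp, spanned Hoxc9 from end to end, and in LIF-ESCs it was a 5576-bp peak over Hoxc12. Both had a score of 3100, a value many Suz12 peaks of the lists share, as had 3 LIF-ESC and 11 Myc-ESC Suz12 peaks of the window in all, so no difference in height can be read among them.

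H3K27me3 came as many short peaks. Over the cluster their median length was 152 bp for LIF-ESCs, where the longest was 333 bp, and 204 bp for Myc-ESCs, where it was 884 bp. In Myc-ESCs the peaks joined into 23 domains, the longest of 13409 bp between the starts of Hoxc12 and Hoxc11, over the Hotair gene. The posterior segment had H3K27me3 on 4.03% of its bases in LIF-ESCs and 43.1% in Myc-ESCs. The central segment had 4.39% and 47.0%, and the anterior segment 2.21% and 17.3%. The anterior end was thus the least covered in both cultures. Of the 27 LIF-ESC peaks, 25 (92.6%) were overlapped by a Myc-ESC peak, where 51.6% of the whole LIF-ESC list was. Of the 182 Myc-ESC peaks, 27 (14.8%) were overlapped by a LIF-ESC peak, against 8.95% of the whole list. Only 2 LIF-ESC peaks had no counterpart in the full Myc-ESC list. Of these, 1 lay before Hoxc11 (chr15:102949151-102949350) and 1 before the curated Hoxc4 start, within the Hoxc4 gene record (chr15:103024324-103024471).

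Most H3K27me3 of the cluster lay on Suz12. In Myc-ESCs 90.8% of its bases were under Suz12 peaks, which cover 77.6% of the window, and in LIF-ESCs 67.5% were, with Suz12 on 52.4%. H3K4me3 and H3K27me3 met less often. In Myc-ESCs 15.3% of H3K27me3 bases were under H3K4me3, which covers 26.8% of the window. Of the Myc-ESC bases with Suz12 but no H3K4me3, 49.4% were under H3K27me3, and of those with both Suz12 and H3K4me3, 20.9%. All 3 antibodies shared 500 bases of the window in LIF-ESCs and 7039 in Myc-ESCs. Bases with no peak of any antibody made up 39.4% of the window in LIF-ESCs and 17.4% in Myc-ESCs.

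Around the start sites the marks took different places. Averaged over the 9 genes, the bases within 500 bp of the start were covered by H3K4me3 to 62.6% in LIF-ESCs, against 88.4% in Myc-ESCs, and by Suz12 to 70.3% and 89.4%. H3K27me3 covered 1.24% and 4.96% of the same bases. Between 500 and 2500 bp upstream it covered 5.86% and 40.7%, and between 500 and 2500 bp downstream 4.36% and 37.6%. No HoxC start site lay inside an H3K27me3 peak in either culture. The closest was at Hoxc12 in Myc-ESCs, 67 bp away. This is shared with other genes. Of all symbols with an H3K27me3 peak in their window, 2.60% (LIF-ESCs) and 3.84% (Myc-ESCs) had a start site inside one. Every HoxC gene marked by H3K4me3 had its start inside the peak, as had 95.0% and 95.2% of all symbols so marked. For Suz12, 6 starts of 9 lay inside a peak in LIF-ESCs, where 39.5% of all symbols marked by Suz12 did, and 8 did in Myc-ESCs, against 48.9%.

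**Figure D3:**
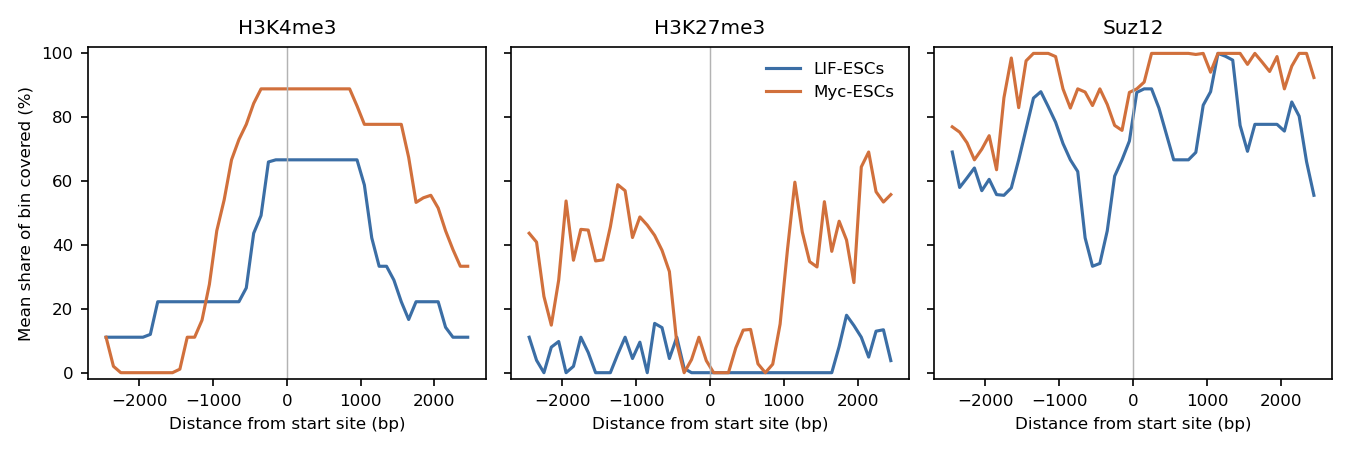
Mean share of each 100-bp bin covered by peaks, in percent, against the distance from the start site in bp (negative values upstream), averaged over the 9 HoxC genes in LIF-ESCs (blue) and Myc-ESCs (orange). H3K4me3 is highest at the start, where H3K27me3 falls to near 0 in both cultures, and the H3K27me3 of Myc-ESCs lies on both sides of this gap.

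The sequence under the peaks differed between the antibodies as well. CpG is the dinucleotide that is dense in CpG islands, where the start sites of Hox genes usually lie. The whole window held 2.03 CpG per 100 bases. Bases under H3K4me3 held 3.96 in LIF-ESCs, against 3.70 in Myc-ESCs, and bases under Suz12 2.74 and 2.36. Bases under H3K27me3 held 1.14 and 1.08, fewer than the window as a whole. Within the Myc-ESC Suz12 peaks, the bases with H3K27me3 held 1.13 CpG per 100 and those without it 3.19. Over the whole lists, H3K27me3 peaks held 1.61 in LIF-ESCs, against 1.39 in Myc-ESCs, H3K4me3 peaks 2.73 and 2.82, and Suz12 peaks 4.29 and 4.18. H3K27me3 was thus the lowest of the 3 both in HoxC and over the lists, whereas H3K4me3 lay above Suz12 in HoxC and below it over the lists. The bases under Suz12 in both cultures held 2.80 CpG per 100, those under Suz12 in Myc-ESCs alone 1.56, and those under it in neither 0.840. Base composition also affects how well fragments are amplified and mapped, and its part in where H3K27me3 peaks were called was not tested.

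**Figure D4:**
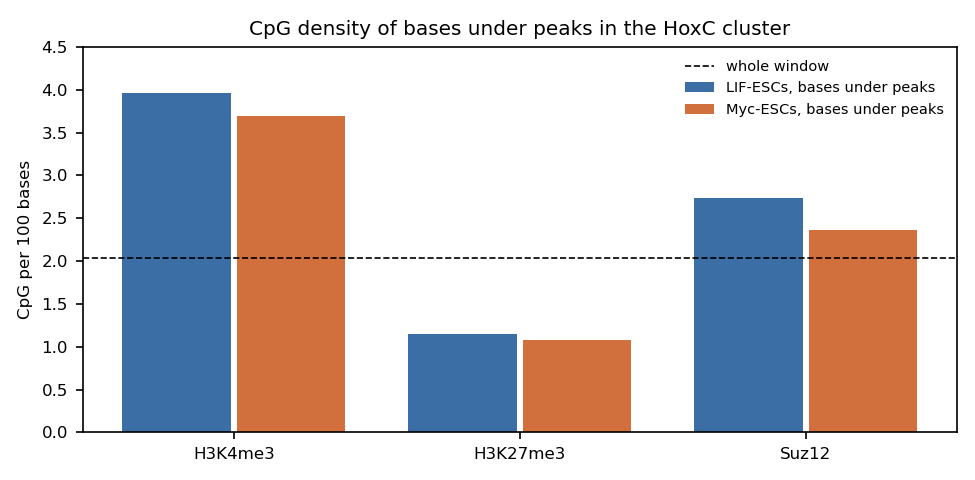
CpG dinucleotides per 100 bases under the peaks of each antibody within the HoxC window, in LIF-ESCs (blue) and Myc-ESCs (orange), with the value of the whole window, 2.03, as a dashed line. H3K4me3 and Suz12 bars stand above the line and both H3K27me3 bars below it.

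The H3K27me3 peaks can be read in the letters of GRCm38, on the plus strand from 5′ to 3′, with every CpG in capitals. The first 2 sequences are shown as the highest-scoring H3K27me3 peaks of the window. In LIF-ESCs this was a peak of 286 bp between Hoxc11 and Hoxc10 (score 167), with 2 CpG, printed whole. In Myc-ESCs it was a peak of 884 bp before Hoxc13 (score 429), whose central 300 bases hold 0. The last 2 are the central 300 bases of the highest-scoring Myc-ESC H3K27me3 peak lying wholly in the window of Hoxc9 (370 bp, score 175) and of Hoxc6 (338 bp, score 173). They are shown because these genes had no LIF-ESC H3K27me3 peak in their windows, and they hold 9 and 1 CpG, so not every such peak was poor in CpG.
LIF-ESC H3K27me3 peak, chr15:102964145-102964430: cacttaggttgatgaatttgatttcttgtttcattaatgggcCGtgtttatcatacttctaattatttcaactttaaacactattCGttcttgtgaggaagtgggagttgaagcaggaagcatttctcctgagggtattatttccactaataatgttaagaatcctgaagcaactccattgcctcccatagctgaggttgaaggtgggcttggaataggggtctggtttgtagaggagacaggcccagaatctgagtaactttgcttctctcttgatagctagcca
Myc-ESC H3K27me3 peak, chr15:102914771-102915070: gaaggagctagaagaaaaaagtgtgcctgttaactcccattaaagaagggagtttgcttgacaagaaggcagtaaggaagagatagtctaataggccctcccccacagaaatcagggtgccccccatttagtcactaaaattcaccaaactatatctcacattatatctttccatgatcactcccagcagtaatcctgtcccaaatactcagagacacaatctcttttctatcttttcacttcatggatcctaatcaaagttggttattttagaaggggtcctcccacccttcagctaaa
Myc-ESC H3K27me3 peak at Hoxc9, chr15:102975251-102975550: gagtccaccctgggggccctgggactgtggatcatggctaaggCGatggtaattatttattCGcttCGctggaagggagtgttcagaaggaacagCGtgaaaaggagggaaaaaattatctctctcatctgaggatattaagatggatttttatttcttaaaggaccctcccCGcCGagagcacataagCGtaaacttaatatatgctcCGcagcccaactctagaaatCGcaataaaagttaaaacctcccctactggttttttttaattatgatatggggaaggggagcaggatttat
Myc-ESC H3K27me3 peak at Hoxc6, chr15:103008765-103009064: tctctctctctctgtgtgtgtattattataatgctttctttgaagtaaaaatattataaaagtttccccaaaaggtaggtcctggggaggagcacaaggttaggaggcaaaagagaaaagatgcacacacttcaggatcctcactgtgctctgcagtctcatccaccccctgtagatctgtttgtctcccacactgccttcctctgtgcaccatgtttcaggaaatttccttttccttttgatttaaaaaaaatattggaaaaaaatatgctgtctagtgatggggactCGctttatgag

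The start-site windows themselves held 2.26 to 3.90 CpG per 100 bases, lowest at Hoxc8 and highest at Hoxc12, against a median of 1.82 over 26155 symbols. Hoxc9, the gene without H3K4me3, held 2.74, more than Hoxc8, Hoxc6 and Hoxc4, which carried it in Myc-ESCs. The letters CACGTG, the E-box that Myc binds with Max and that reads the same on both strands, occurred in the windows of Hoxc13, Hoxc12, Hoxc11, Hoxc5 and Hoxc4. These are 5 of 9 genes, or 55.6%, against 48.8% of all symbols. The nearest copy to a start was 71 bp away, at Hoxc12. Among the HoxC genes, only Hoxc4 had a promoter in the RefSeq promoter set used here, so its promoter is shown. Hoxc4 carried H3K4me3 in both cultures and had the least Suz12. Its H3K27me3 was the least in Myc-ESCs, and in LIF-ESCs it was 0 bases, as at Hoxc9 and Hoxc6. The 250 bases before its start site (chr15:103034145-103034394, GRCm38.p6, plus strand) hold 8 CpG and no CACGTG, where the median over 32851 promoters was 6 CpG and 6.02% held the motif.
Hoxc4, chr15:103034145-103034394: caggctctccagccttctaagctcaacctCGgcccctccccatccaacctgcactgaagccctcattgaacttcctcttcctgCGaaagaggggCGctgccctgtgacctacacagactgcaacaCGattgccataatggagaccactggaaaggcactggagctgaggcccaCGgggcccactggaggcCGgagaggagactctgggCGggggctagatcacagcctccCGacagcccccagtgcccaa

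Of the 4 non-coding genes that start within the window, Hotair is a long RNA read from the minus strand between Hoxc12 and Hoxc11 and studied for its reported link to PRC2. It had no H3K4me3 within 2500 bp of its start. H3K27me3 covered 200 bases of its window in LIF-ESCs, against 1875 in Myc-ESCs, and Suz12 1124 and 3364, with the start inside a Suz12 peak in Myc-ESCs only. Mir196a-2, between Hoxc10 and Hoxc9, encodes miR-196a, which is known to target Hox mRNAs. The start used for Mir196a-2 is the first base of its annotated record (chr15:102973350-102973434), which need not be where its transcription starts. No H3K4me3 lay within 2500 bp of that base. H3K27me3 covered 0 bases of the Mir196a-2 window in LIF-ESCs, against 3549 in Myc-ESCs, or 71.0%, where the 9 HoxC genes had 4.36% to 50.1%. These windows are unlike, because that of Mir196a-2 need not be centred on a transcription start. Its window overlaps that of Hoxc9. Mir615, whose start was taken in the same way, lies within Hoxc5 and shares its peaks. It had H3K4me3 on 2000 and 3524 bases, H3K27me3 on 390 and 2157, and Suz12 on 3800 and 4971. Gm36878 had H3K4me3 over its start in both cultures, above 59.6% and 59.5% of the lists, and H3K27me3 on 486 and 2548 bases. The mature miRNAs are given to identify the genes, from RefSeq, with the seed (bases 2 to 8) in capitals, and their seeds differ.
mmu-miR-196a-5p, chr15:102973365-102973386: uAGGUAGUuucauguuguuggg
mmu-miR-615-3p, chr15:103014969-103014990: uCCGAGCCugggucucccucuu

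Coverage was lower on both sides of the window than within it, but peaks went on past the Hoxc4 end. In the 100 kb beyond the Hoxc13 end, H3K27me3 covered 0% in LIF-ESCs, against 0.551% in Myc-ESCs, Suz12 0.261% and 0.916%, and H3K4me3 0.250% and 0.509%. In the 100 kb beyond the Hoxc4 end, H3K27me3 covered 0.156% and 1.70%, with 1 and 11 peaks, where 0.0253% and 0.140% of the genome were covered. Suz12 covered 6.42% and 6.30% there, with 10 and 8 peaks, against 0.228% and 0.344% of the genome. H3K4me3 covered 6.83% and 10.9%, against 3.41% and 3.33%. The nearest protein-coding neighbours were Calcoco1, Atp5g2 (a subunit of ATP synthase) and Atf7 beside Hoxc13, and Smug1 (a DNA repair glycosylase), Cbx5 (the heterochromatin protein HP1α) and Hnrnpa1 (an RNA-binding protein) beside Hoxc4. All of these had H3K4me3 in both cultures and neither H3K27me3 nor Suz12 within 2500 bp of a start.

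The other Hox clusters were covered in a like way. From the first to the last base of their curated transcripts (for HoxB without the distant Hoxb13), H3K27me3 covered 3.87% of HoxC in LIF-ESCs and 36.2% in Myc-ESCs, against 4.32% and 37.5% of HoxA, 2.38% and 19.0% of HoxB, and 5.18% and 36.6% of HoxD. The ratio of covered bases was 9.35 at HoxC, 8.67 at HoxA, 7.98 at HoxB and 7.08 at HoxD. HoxC had the least Suz12 of the 4 in LIF-ESCs, 56.2%, where the others had 62.5% to 70.8%, and it had 83.1% in Myc-ESCs, second to the 85.9% of HoxA. Its Suz12 ratio, 1.48, was above those of the other clusters, 1.10 to 1.28. H3K4me3 covered 20.1% and 28.9% of HoxC. The H3K4me3 ratio was 1.44 at HoxC, 1.17 at HoxA, 2.48 at HoxB and 1.53 at HoxD. Every Hox gene of the 4 clusters had Suz12 in both cultures and H3K27me3 in Myc-ESCs. In LIF-ESCs H3K27me3 was found at 6 of 9 HoxC, 6 of 11 HoxA, 6 of 10 HoxB and 7 of 9 HoxD genes. Of the paralogues of Hoxc9, Hoxa9 and Hoxb9 were also without it and Hoxd9 had it.

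**Figure D5:**
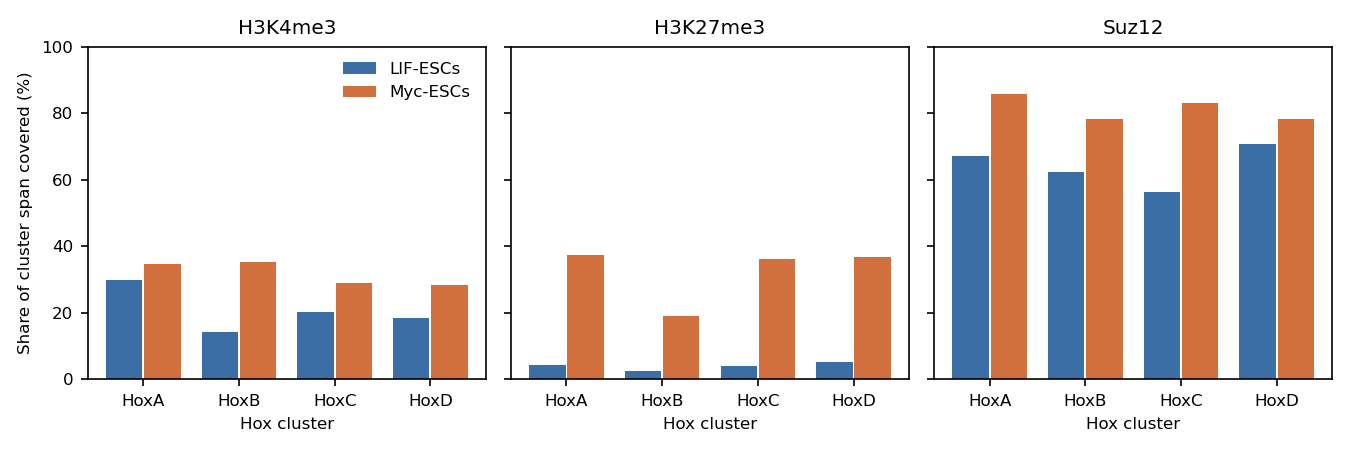
Share of each Hox cluster covered by peaks, in percent of the span from its first to its last transcribed base, for H3K4me3, H3K27me3 and Suz12 in LIF-ESCs (blue) and Myc-ESCs (orange), with 1 list per bar and no error bar. H3K27me3 covers 2.38% to 5.18% in LIF-ESCs and 19.0% to 37.5% in Myc-ESCs, with HoxC at 3.87% and 36.2%.

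Outside the Hox clusters, the genes whose 6 covered shares lay nearest to the median of the 9 HoxC genes were named by Euclidean distance, in percentage points over the 6 lists. They were Dmrt3 (12.6), Hmx2 (13.5), 9230102O04Rik (13.7), Sox17 (16.9) and 2610027K06Rik (18.6). Among the HoxC genes themselves, Hoxc10 was the nearest to the median, at 11.4, and Hoxc9 the farthest, at 68.0, followed by Hoxc12 at 66.9, Hoxc4 at 65.8 and Hoxc13 at 61.5. Dmrt3 and Hmx2 encode transcription factors and had no more than 4.67% of the window under H3K27me3 in LIF-ESCs, and 33.2% and 37.7% in Myc-ESCs. These shares were among the 6 by which the genes were chosen, so their likeness to HoxC is no separate result.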

How the data were processed

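ChIP-seq peaks of H3K4me3, H3K27me3 and Suz12 in LIF-ESCs and Myc-ESCs were used as deposited. The authors aligned reads with Bowtie2 2.2.3 to GRCm38, kept uniquely mapped reads and called peaks with MACS 1.4.2. They deposited a position and a score, 10 times the negative log10 of the MACS p-value, for each peak, with no read counts. Whether the 2 libraries behind a list were pooled is not given in the sources used here. MACS at its default settings was made for narrow peaks and can split broad H3K27me3 regions. Where both cultures are compared, the lists also depend on depth, which is unknown.

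No peak lay outside the GRCm38 chromosomes or overlapped another of its list. Positions count from 1. Start sites came from 45755 curated RefSeq transcripts, and at least 1 bp of overlap counted. Segments were cut midway between neighbouring genes. Python 3.11.15, pandas 2.3.3, numpy 2.4.6 and matplotlib 3.10.9 were used, and interval code was tested on simulated data. The genes and lists were chosen with earlier results of these data known. Genes named were the 9 members grouped by position, non-coding genes starting in the window, 3 protein-coding neighbours on each side, Hox genes of other clusters, the 5 genes nearest to the median of the members, and the highest-scoring peak of a list. Other peaks were named after their values were seen. The alternatives tried were lists of equal length, a lowest score of 100, windows of 1000 and 5000 bp, the 5′ end of the gene record as the start site, the span of the genes, and overlaps of 50% of the shorter peak or within 1000 bp. Expression was not analysed here.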

Additional observations from a re-analysis of the deposited data

How the results depend on the processing

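Of 93 alternative values, 78 stayed within 1.5 times the reported value, 15 did not, and under the alternatives run the covered bases remained more in Myc-ESCs than in LIF-ESCs for each antibody. Some of the 78 could hardly move. Equal length leaves the shorter list of each antibody as it was, and the gene-record start differs from the curated start only at Hoxc6 and Hoxc4. A score of at least 100 left 7 LIF-ESC H3K4me3 peaks, 4 LIF-ESC and 72 Myc-ESC H3K27me3 peaks, and 54 and 51 Suz12 peaks over the cluster. H3K27me3 then covered 0.733% of the window in LIF-ESCs and 20.2% in Myc-ESCs, 27.6 times the bases. It marked 2 genes in LIF-ESCs, Hoxc13 and Hoxc10. Scores depend on depth, so a limit of 100 need not be equally strict in both cultures. With lists of equal length, the Myc-ESC H3K27me3 values were 69 peaks, 19.7% of the window, a ratio of 5.75 and 17 peaks shared with LIF-ESCs. Within 1000 bp, 83 Myc-ESC H3K27me3 peaks counted as shared, and windows of 1000 bp left 3 genes with LIF-ESC H3K27me3. Start sites at the 5′ end of the gene record gave 8 genes with LIF-ESC H3K27me3 and changed calls at Hoxc6 and Hoxc4. Among these 8, Hoxc4 was counted through peaks that lie over Hoxc5. In the limited lists fewer peaks were counted by construction, and for the other changes the cause was not tested. No paired analysis was possible because each culture and antibody has 1 list and no values per replicate, and for the same reason no replicate could be left out. Depth is unknown, so peaks absent from a list may lie below its score minimum of 50.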
